A study of Mus musculus with 12 samples.

Results

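Integrins and laminins are the receptors and the basement membrane proteins that tie heart cells and infiltrating leukocytes to the matrix around them. Their transcripts were followed in whole mouse hearts after sham surgery, 1 day after acute myocardial infarction (day 1 AMI), and 7 days after it (day 7 AMI). Genes were taken by symbol, as every row whose symbol begins with Itga or Itgb or names a laminin α, β, or γ chain. The rule found 43 of the 53801 rows. Of these, 27 were integrin chains (18 α and 9 β), 11 were laminin chains, and 5 were other genes that share the letters. The 3 groups held 4 hearts each, from adult male mice of the C57BL/6N strain, with 1 library per heart. For AMI the left anterior descending artery was tied off permanently under isoflurane. The day on which sham hearts were taken is not stated for that group by itself, and whole hearts mix infarcted with surviving muscle.

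An integrin is a pair of one α and one β chain that spans the cell membrane. Inside the cell it holds on to actin through talin, kindlin, and their partners. The α chain largely sets the ligand. One set of α chains binds collagen, another laminin, another the RGD sequence of fibronectin and vitronectin, and a further set pairs with the β2 chain on leukocytes, where the pairs carry cells through the vessel wall. Laminins are trimers of an α, a β, and a γ chain and form the sheet of the basement membrane around cardiomyocytes, capillaries, and smooth muscle. Cardiomyocytes are known for the laminin receptor α7β1 and for laminins with the α2 chain, and capillaries for laminins with the α4 and α5 chains.

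Each library held between 23204551 and 32166517 counts, so that the floor of 3 counts was between 0.0933 and 0.129 CPM, that is counts scaled to a common library size (counting error only). Levels of a gene across hearts are given as CPM after TMM scaling, and levels of different genes are compared in TPM, a transcript level that allows for length. A differentially expressed gene (DEG) had to differ by a fold change (FC) of at least 2 with a false discovery rate (FDR) below 0.05 in edgeR's quasi-likelihood test, run over the 15306 genes left by a filter for low expression. All adjusted p-values below are from that test. Of the 43 genes, 40 passed the filter, and *Itgad*, *Itgb2l*, and *Lama1* did not. *Itgae* and *Lamc3* had all 4 hearts over the filter's level only on day 7, *Itgax* only in the 2 AMI groups, and the row *Gm49368* in no whole group. The exact permutation test of 4 hearts against 4 cannot give a p below 0.0286. Nothing in the labels ties replicate numbers to litters or days, so the p-values measure the spread between these hearts. On the TPM scale the median of all genes moved up by 0.29 (log2) for day 1 AMI against sham, by 0.45 for day 7 AMI against sham, and by 0.17 between the 2 AMI groups, and genes with smaller changes can differ in direction between the scales.

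The hearts carried the markers of heart muscle throughout, and the markers of other cells moved with the groups. The summed CPM of 11 cardiomyocyte genes ran from 94197 to 107954 in sham, from 58757 to 72258 on day 1, and from 50911 to 60603 on day 7. For 9 fibroblast genes the sum ran from 2436 to 2816, from 2467 to 3491, and from 7883 to 15187, with the highest value on day 7 heart 1. The sum of 10 endothelial genes was 1608 to 1845, 1274 to 1355, and 1845 to 2051. Sham heart 2 had 4489 CPM of 7 erythroid genes, against 492 to 1186 in the other sham hearts. In bulk RNA, fewer cells of a type and less RNA per cell cannot be told apart.

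The 40 matches tested were more often higher than lower after AMI, early for leukocyte chains and late for chains that bind collagen. In day 1 AMI against sham, 10 of the 40 genes tested were DEGs higher in AMI, beside 7.79% of all genes tested, and 1 was lower, beside 2.98%. In day 7 AMI against sham, 19 were higher, beside 15.3% of all genes, and 1 was lower, beside 5.88%. From day 1 to day 7, 8 were higher, beside 8.55%, and 2 were lower, beside 2.69%. With limma on log2(TPM + 1) that last split was 9 and 1, with log2(TPM + 0.1) it was 12 and 1, and with library sizes alone it was 11 and 1. In either direction, 10.8%, 21.2%, and 11.2% of all genes were DEGs in the 3 comparisons. By the FDR alone, 17 of the 40 were higher and 7 lower on day 1 against sham, beside 22.0% and 19.9% of all genes (41.8% either way). On day 7 against sham 29 were higher and 7 lower, beside 30.9% and 28.4% (59.3%), and from day 1 to day 7 these were 18 and 8, beside 24.2% and 22.8% (47.0%). The 4 hearts of each group did not overlap for 15 higher and 5 lower genes on day 1 against sham, beside 19.6% and 17.1% of all genes (36.7%). The same counts were 27 and 7 on day 7 against sham, beside 28.3% and 24.7% (53.0%), and 19 and 7 from day 1 to day 7, beside 23.5% and 20.9% (44.5%). As a share of the 40, the higher genes stood above all genes tested in each of the 3 comparisons and by each of these measures. The lower genes stood below, except for the 2 DEGs from day 1 to day 7. *Itgae* and *Itgax*, among the genes higher than in sham, and *Lamc3*, among those higher on day 7 than on day 1, passed the filter only through AMI groups in which they were high, so their calls lend no support to these counts. *Gm49368*, among the genes higher on day 1 than in sham, was over the filter's level in 4 libraries, all of AMI hearts. Its call lends no support either. The median log2 FC of the 40 genes was 0.24, 0.95, and 0.46 in the 3 comparisons, where the median of all genes was −0.01, 0.03, and 0.02. Each pair of these comparisons shares a group of hearts, so their values are set side by side and not counted as separate support.

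**Figure D1:**
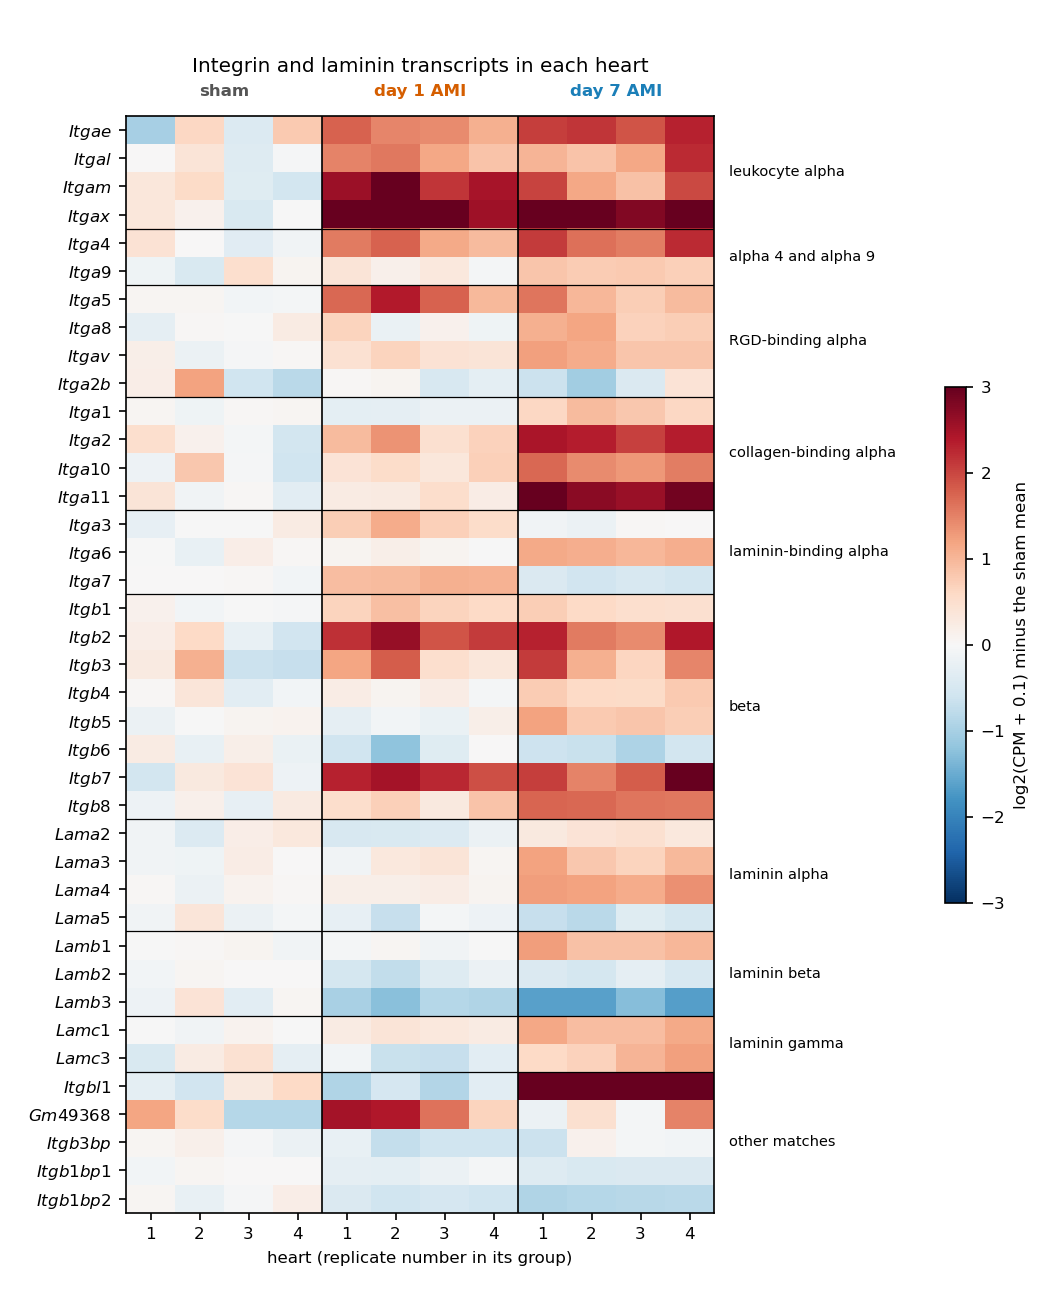
Heat map of 39 genes that passed the filter (rows, grouped by what the chain binds or builds) in each of the 12 hearts (columns). Color is log2(CPM + 0.1) minus the mean of the 4 sham hearts, from −3 (blue) to 3 (red). The leukocyte α chains with *Itgb2* and *Itgb7* are red in both AMI groups, while *Itga11* and *Itgbl1* are red only on day 7 and *Lamb3* is blue in both.

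The leukocyte α chains *Itgal* and *Itgam* and the β chains *Itgb2* and *Itgb7* were DEGs higher on day 1 and on day 7 than in sham. *Itgal* was not a DEG on day 1 with limma on log2(TPM + 1). *Itgae* and *Itgax* were also called at both times, but as they passed the filter only through AMI groups their values are given as a description. *Itgam* (chr7:128062640-128118491, GRCm38) encodes CD11b, the α chain of Mac-1 on neutrophils and monocytes. Its level was 9.44, 11.3, 5.77, and 5.12 CPM in the sham hearts, 44.8, 72.3, 33.5, and 41.7 on day 1, and 31.1, 16.8, 13.9, and 29.8 on day 7. Every AMI heart lay above every sham heart, and every day 7 heart lay below every day 1 heart. The gene rose 6.07-fold by day 1 (log2 FC 2.60, SE 0.324, adjusted p = 6.1e-05) and then fell by 1.07 on the log2 scale (SE 0.298, adjusted p = 0.00925). The fall from day 1 to day 7 missed the 2-fold minimum without day 1 heart 2 (log2 FC −0.81), without day 7 heart 2 (−0.95), and without day 7 heart 3 (−0.89).

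*Itgax* lies next to *Itgam* (chr7:128129547-128150657, same strand) and encodes CD11c of dendritic cells and macrophages. In contrast to *Itgam*, no fall was seen by day 7. The sham hearts held 0.835, 0.698, 0.437, and 0.622 CPM, the day 1 hearts 8.07, 5.88, 7.16, and 4.16, and the day 7 hearts 8.91, 6.88, 4.94, and 7.75. The AMI groups overlapped each other and lay wholly above sham. The log2 FC was 3.28 on day 1 (SE 0.277, adjusted p = 6.05e-06), 3.45 on day 7 (SE 0.276, adjusted p = 2.45e-07), and 0.18 between them (SE 0.217, adjusted p = 0.526). With limma on log2(TPM + 1) the differences from sham were 1.28 and 1.67. The third gene of this stretch, *Itgad* (CD11d), had at most 3 counts in any library, and no FC is given for it.

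The promoters of *Itgam* and *Itgax* are shown because both genes rose together on day 1 and parted by day 7, and because the table of promoters used here holds them. They are the 250 bases before the RefSeq start on the plus strand of GRCm38.p6, at chr7:128062390-128062639 for *Itgam* and chr7:128129300-128129549 for *Itgax*. Capitals mark the letters GAGGAA or their reverse complement TTCCTC, the core bound by PU.1 and other ETS factors of myeloid cells, and TGANTCA, the AP-1 site.
Itgam: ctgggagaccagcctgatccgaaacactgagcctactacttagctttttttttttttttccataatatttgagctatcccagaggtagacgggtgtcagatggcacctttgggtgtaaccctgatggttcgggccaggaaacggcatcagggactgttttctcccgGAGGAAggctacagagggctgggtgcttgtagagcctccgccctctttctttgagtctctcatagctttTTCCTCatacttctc
Itgax: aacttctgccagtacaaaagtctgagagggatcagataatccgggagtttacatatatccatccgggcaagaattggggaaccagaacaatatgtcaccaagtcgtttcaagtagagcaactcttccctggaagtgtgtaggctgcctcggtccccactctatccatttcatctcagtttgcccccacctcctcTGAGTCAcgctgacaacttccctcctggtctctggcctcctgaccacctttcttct
*Itgam* held 2 matches to GAGGAA, beginning 84 and 15 bases before the start, and none to TGANTCA. *Itgax* held 1 match to TGANTCA, 56 bases before the start, and none to GAGGAA. Both strands were read. Of 32851 promoters of this length, 23.3% held GAGGAA and 6.75% held TGANTCA. A promoter was given for 27 of the 43 genes, of which 14 held GAGGAA and 1 held TGANTCA. The motifs and the promoters printed were chosen after the values of the genes were seen, and a match is a description of the letters only.

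*Itgb2* encodes CD18, the β2 chain that both CD11b and CD11c need to reach the cell surface. Its level was 8.24, 10.9, 6.06, and 4.78 CPM in sham, 33.0, 44.1, 26.7, and 30.9 on day 1, and 35.8, 21.1, 19.4, and 38.1 on day 7. The AMI groups overlapped each other and each lay above sham, with log2 FCs of 2.16 (SE 0.272, adjusted p = 6.55e-05) and 1.93 (SE 0.271, adjusted p = 3.17e-05). *Itgal*, the CD11a chain of LFA-1, rose from a mean of 2.68 CPM in sham to 6.62 and 7.23, and its day 7 hearts ran from 4.83 to 12.7 with heart 4 far above the rest. Its log2 FCs were 1.30 (SE 0.300, adjusted p = 0.00357) and 1.43 (SE 0.300, adjusted p = 0.000919).

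The αE, α4, and β7 chains were low but moved the same way. *Itgb7*, which pairs with α4 and αE, was 0.626, 1.19, 1.31, and 0.861 CPM in sham, 5.16, 5.91, 4.97, and 3.97 on day 1, and 4.38, 2.90, 3.65, and 9.39 on day 7. It was 4.97-fold higher on day 1 (adjusted p = 0.000233) and 5.05-fold higher on day 7 (adjusted p = 6.55e-05). *Itgae*, the αE chain CD103 of resident T cells and dendritic cells, was at 0 to 0.239 CPM in sham, 0.315 to 0.574 on day 1, and 0.627 to 0.884 on day 7. Its log2 FC was 1.74 on day 1 (SE 0.523, adjusted p = 0.0162) and 2.52 on day 7 (SE 0.498, adjusted p = 0.00056), and the day 1 call was lost without sham heart 3 (1.48, adjusted p = 0.0502). In a fit of sham and day 1 AMI alone *Itgae* did not pass the filter and was not tested. *Itga4*, the α4 chain of VLA-4, rose from 2.62 to 4.54 CPM in sham to 6.56 to 11.7 on day 1 and 9.89 to 16.1 on day 7, with log2 FCs of 1.39 (SE 0.226, adjusted p = 0.000329) and 1.91 (SE 0.226, adjusted p = 6.69e-06). The day 1 call of *Itga4* was lost with limma on log2(TPM + 1) (0.70).

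The leukocyte markers moved with these chains. Each of 8 pan-leukocyte genes, such as *Ptprc* (CD45), was a DEG higher in both AMI groups than in sham. Their summed CPM was 76.4 to 130.2 in sham, 276 to 400.4 on day 1, and 290.2 to 468 on day 7. Among all genes tested, 7.79% were DEGs higher on day 1 and 15.3% on day 7 than in sham, and 2.69% fell between the AMI groups. Of 10 neutrophil genes tested, 5 were higher on day 1 than in sham and 7 fell from day 1 to day 7. Their sum was 4.54 to 64.4 CPM in sham, 53.5 to 192 on day 1, and 11.6 to 45.5 on day 7, with the highest value in day 1 heart 2, where *Itgam* was also highest. Of 12 monocyte and macrophage genes, 7 were higher on day 1 and 10 on day 7, with sums of 230 to 324, 457 to 666, and 712 to 1074 CPM. The 9 T and NK cell genes summed to 2.38 to 2.92, 2.84 to 8.22, and 7.30 to 13.9 CPM, with sham and day 1 overlapping. Of the 7 tested, 2 were higher than in sham on day 1 and 7 on day 7. No listed marker of these cells was at 0 counts across a whole group. Their part in the rise of the integrin chains was not tested.

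**Figure D2:**
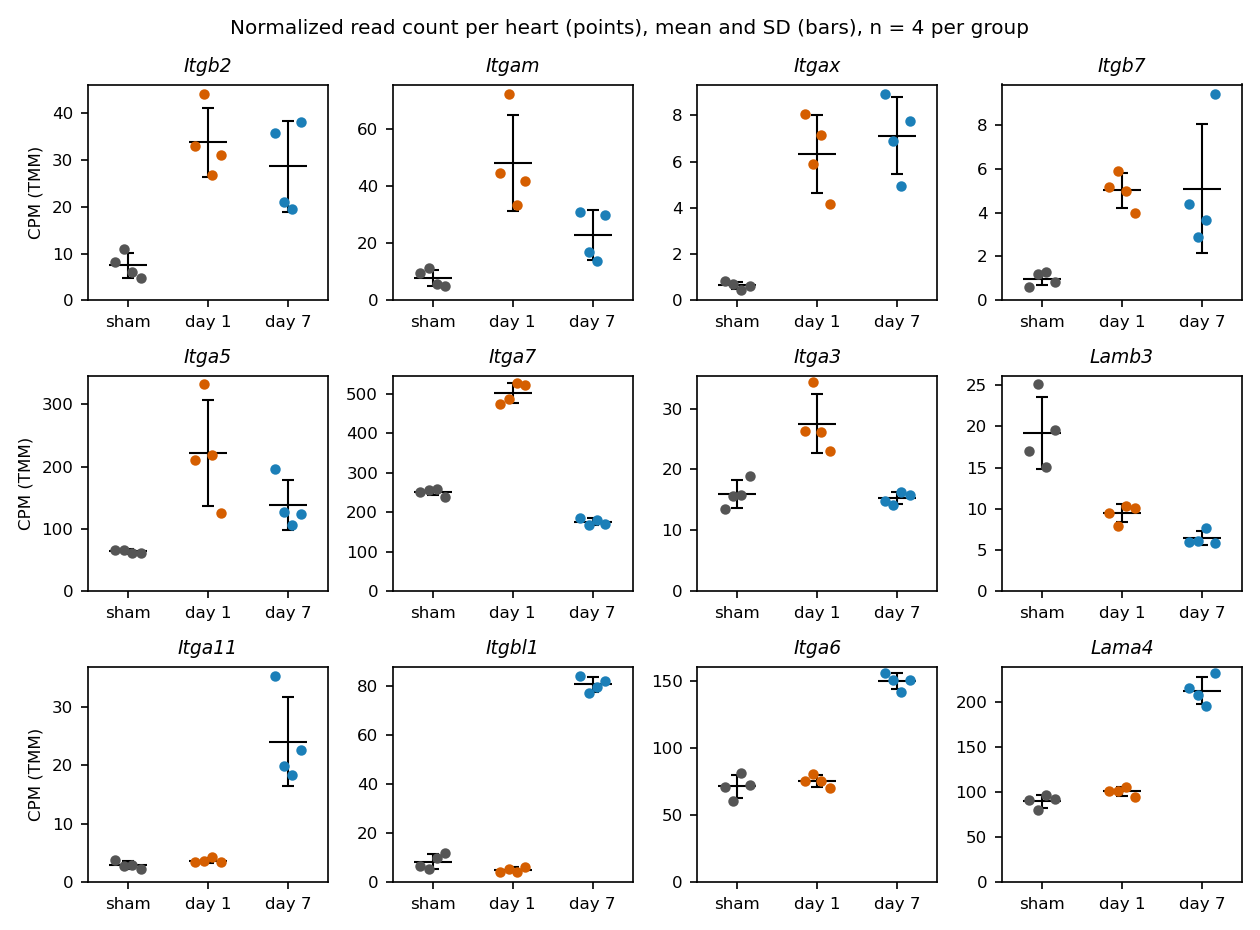
Normalized read count (CPM after TMM scaling) of 12 chosen genes in each heart. Points are hearts, the long bar is the mean of 4, and the short bars are the SD. *Itgam*, *Itga5*, *Itga7*, and *Itga3* are highest on day 1, where *Itga7* has a mean of 502 CPM against 252 in sham, *Lamb3* is highest in sham, and *Itga11*, *Itgbl1*, *Itga6*, and *Lama4* are highest on day 7.

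Of the 4 α chains that bind the RGD sequence, *Itga5* was a DEG higher than in sham on day 1, beside 7.79% of all genes. On day 7 *Itga5* and *Itgav* were, beside 15.3%. *Itga5* (chr15:103344286-103366763, minus strand) encodes the fibronectin receptor chain α5. It was 66.9, 66.6, 60.8, and 61.4 CPM in sham, 211, 332, 218, and 125 on day 1, and 196, 127, 106, and 124 on day 7. Both AMI groups lay above sham and overlapped each other, with a 3.47-fold rise on day 1 (SE 0.241 on the log2 scale, adjusted p = 9.79e-05) and a 2.16-fold rise on day 7 (SE 0.237, adjusted p = 0.00103). Between the AMI groups the log2 FC was −0.68 (SE 0.234, adjusted p = 0.0274), below the FC minimum. Without day 7 heart 1 the day 7 rise over sham was 0.90 on the log2 scale, under the FC minimum. That heart also had the highest fibroblast sum.

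*Itgav*, the αV chain that pairs with β1, β3, β5, β6, and β8, stood at the FC minimum by day 7. Its values were 22.0 to 28.2 CPM in sham, 32.2 to 39.6 on day 1, and 44.1 to 58.2 on day 7, so that the groups did not overlap in either step. The log2 FC against sham was 0.49 on day 1 (SE 0.112, adjusted p = 0.0034) and 1.01 on day 7 (SE 0.112, adjusted p = 3.87e-06). The day 7 call was lost in 9 of 22 alternatives, among them those without sham heart 2 (0.95), sham heart 3 (0.99), day 7 heart 1 (0.93), and day 7 heart 2 (0.97). *Itga8*, a chain of smooth muscle and fibroblasts, was 1.91-fold higher on day 7 than in sham (adjusted p = 0.000867) and missed the FC minimum. *Itga2b*, the platelet chain CD41, passed the FDR in no comparison, and its sham hearts ran from 1.58 to 6.61 CPM with heart 2 highest. The sums of 8 platelet genes overlapped between sham (14.9 to 34.5 CPM) and day 7 AMI (16.3 to 23.9), and were 28.8 to 40.5 on day 1, where 1 of 6 tested was higher than in sham and 3 were lower. *Itga9*, a receptor for tenascin and osteopontin and the closest chain to α4, was 1.66-fold higher on day 7 than in sham (113 to 124 CPM against 50.1 to 97.3, adjusted p = 0.00111) and also missed the FC minimum.

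Of the 4 collagen-binding α chains, none was a DEG on day 1, beside 10.8% of all genes. On day 7, 3 of 4 were DEGs higher than in both sham (beside 15.3%) and day 1 AMI (beside 8.55%). Of the 3, *Itga11* alone kept both calls with limma on log2(TPM + 1). *Itga11* (chr9:62677826-62783982) encodes α11, a receptor for fibrillar collagen on fibroblasts and myofibroblasts. It was 3.91, 2.75, 3.06, and 2.34 CPM in sham, 3.56, 3.61, 4.29, and 3.47 on day 1, and 35.3, 19.9, 18.4, and 22.7 on day 7. Sham and day 1 overlapped, and the lowest day 7 heart was far above the highest of both, with heart 1 at the top. The log2 FC was 0.31 on day 1 (SE 0.219, adjusted p = 0.27), 3.00 on day 7 against sham (SE 0.213, adjusted p = 9.42e-08), and 2.69 between the AMI groups (SE 0.204, adjusted p = 4.15e-07).

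*Itgbl1* (chr14:123659971-123975618), a secreted protein with repeats like those of the integrin β chains but not itself a receptor chain, had the largest step of the 40 genes from day 1 to day 7. Its level was 6.52, 5.34, 9.85, and 12.2 CPM in sham, 4.24, 5.67, 4.32, and 6.43 on day 1, and 84.0, 77.0, 79.7, and 82.2 on day 7. The 4 day 7 hearts lay close together and far above the rest. The gene was 15.6-fold higher on day 7 than on day 1 (log2 FC 3.96, SE 0.216, adjusted p = 1.97e-08) and 9.55-fold higher than in sham (log2 FC 3.25, SE 0.210, adjusted p = 4.7e-08). On day 1 it was 1.63-fold lower than in sham (adjusted p = 0.0168), with overlapping groups.

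*Itga2*, the α2 chain of platelets and epithelium, and *Itga10*, a chain known from cartilage, rose from low levels. *Itga2* ran from 0.526 to 1.20 CPM in sham, from 1.18 to 2.24 on day 1, and from 3.69 to 4.93 on day 7. Its log2 FC was 2.39 against sham on day 7 (SE 0.257, adjusted p = 2.97e-06) and 1.45 between the AMI groups (SE 0.232, adjusted p = 0.000191). With limma on log2(TPM + 1) neither *Itga2* difference reached the FC minimum (0.75 and 0.45), and on log2(TPM + 0.1) the second missed the FDR (1.05, adjusted p = 0.0823). *Itga10* was 0.861 to 2.42, 1.73 to 2.27, and 3.50 to 4.72 CPM in the same order, with log2 FCs of 1.46 (SE 0.256, adjusted p = 0.000213) and 1.03 (SE 0.243, adjusted p = 0.00325). With limma on log2(TPM + 1) neither *Itga10* difference reached the FC minimum (0.95 and 0.74). In edgeR the second of these calls was lost without day 1 heart 1 (1.00), day 1 heart 3 (0.97), and day 7 heart 1 (0.94). Exons of *Gm42957* on the same strand cover 33.5% of the exon bases of *Itga10*, so the counts of this gene are uncertain. *Itga1*, which binds basement membrane collagen on smooth muscle and capillaries, was the most abundant of the 4 at 6.64 TPM ± 0.374 (SD, n = 4) in sham and 16.7 TPM ± 1.43 on day 7. In CPM it was 65.6 to 66.1 in 3 sham hearts and 57.9 in the other, 52.2 to 56.5 on day 1, and 97.4 to 123 on day 7. Its log2 FC from day 1 to day 7 was 0.98 (SE 0.0856, adjusted p = 1.28e-06), just under the FC minimum, and the day 1 difference from sham of −0.23 was 0.14 on the log2(TPM + 1) scale.

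The promoter of *Itga11* is shown as that of the collagen receptor with the largest rise. It is the 250 bases before the RefSeq start on the plus strand of GRCm38.p6, at chr9:62677605-62677854, with the same motifs in capitals.
Itga11: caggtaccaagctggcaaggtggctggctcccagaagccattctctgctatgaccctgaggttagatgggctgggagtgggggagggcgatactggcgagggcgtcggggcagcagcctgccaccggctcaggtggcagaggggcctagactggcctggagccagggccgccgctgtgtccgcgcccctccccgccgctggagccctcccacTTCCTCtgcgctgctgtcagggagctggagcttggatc
It held 1 match to GAGGAA, on the minus strand and beginning 38 bases before the start, and none to TGANTCA.

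Most fibroblast genes moved in the same direction at the same step. By the FDR alone, 7 of 9 were higher and 1 lower on day 7 than on day 1, beside 24.2% and 22.8% of all genes. As DEGs, 6 were higher, beside 8.55% of all genes, and 0 lower, beside 2.69%. Among the 6 were *Col1a1* (log2 FC 3.01, SE 0.301, adjusted p = 4.3e-06) and *Lum* (log2 FC 1.97, SE 0.0872, adjusted p = 2.7e-09). The part of fibroblast number in the rise of *Itga11* and *Itgbl1* was not tested. *Pdgfra*, a marker of cardiac fibroblasts at rest, had a log2 FC of 0.08 at this step (SE 0.0903, adjusted p = 0.51), and *Tcf21*, another, of 1.48 (SE 0.146, adjusted p = 3.9e-06).

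The laminin-binding α chains parted from one another. *Itga7* (chr10:128933818-128958282) encodes α7, the laminin receptor chain of striated muscle. It was 252, 255, 259.7, and 239 CPM in sham, 474, 487, 527, and 521 on day 1, and 185, 169, 181, and 171 on day 7. The 3 groups were wholly apart, with day 1 highest and day 7 lowest. On day 1 the FC was 1.996 (log2 FC 1.00, SE 0.0715, adjusted p = 1.87e-06), just under the minimum of 2, and the gene was called without sham heart 2 or 3, or without day 1 heart 1 or 2. From day 1 to day 7 *Itga7* fell 2.84-fold (log2 FC −1.51, SE 0.0723, adjusted p = 5.7e-09), and this call was kept under each of the 22 alternatives. Against sham the day 7 value was 1.42-fold lower on the CPM scale (log2 FC −0.51, SE 0.0711, adjusted p = 2.89e-05), but 0.04 higher on the log2(TPM + 1) scale. The summed cardiomyocyte markers were lower than in sham at both times. On day 1, 9 of 11 were lower past the FDR, beside 19.9% of all genes. As DEGs, 0 were lower on day 1, beside 2.98%, and 1 was higher, beside 7.79%.

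*Itga3*, the α3 chain of epithelia, had the same peak at a lower level. Its values were 13.5, 15.7, 15.8, and 18.9 CPM in sham, 26.4, 34.4, 26.2, and 23.1 on day 1, and 14.8, 14.1, 16.3, and 15.9 on day 7. Day 1 lay above both other groups, which overlapped. The log2 FC was 0.78 on day 1 (SE 0.126, adjusted p = 0.000319) and −0.85 from day 1 to day 7 (SE 0.125, adjusted p = 0.000102), both below the FC minimum.

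*Itga6* (chr2:71745616-71858416), the α6 chain of endothelium and other cells on laminin, was higher on day 7 alone. It was 71.1, 60.9, 81.5, and 72.8 CPM in sham, 75.8, 81.0, 75.7, and 70.2 on day 1, and 156, 151, 142, and 151 on day 7. Sham and day 1 overlapped and day 7 stood apart, at 2.10-fold over sham (log2 FC 1.07, SE 0.0869, adjusted p = 2.79e-07) and 1.98-fold over day 1 (log2 FC 0.99, SE 0.0865, adjusted p = 1.34e-06). Without sham heart 2 the day 7 difference from sham was 0.99. Of the 10 endothelial markers, 0 were DEGs on day 7 against sham, beside 21.2% of all genes. Past the FDR, 6 were higher and 1 lower, beside 30.9% and 28.4% (median log2 FC 0.29). On day 7 against day 1, 1 was a DEG (*Cdh5*, log2 FC 1.01), beside 11.2% of all genes. Of the 10, 9 were higher past the FDR at that step, beside 24.2% (median 0.51). Their part in the level of *Itga6* was not tested.

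**Figure D3:**
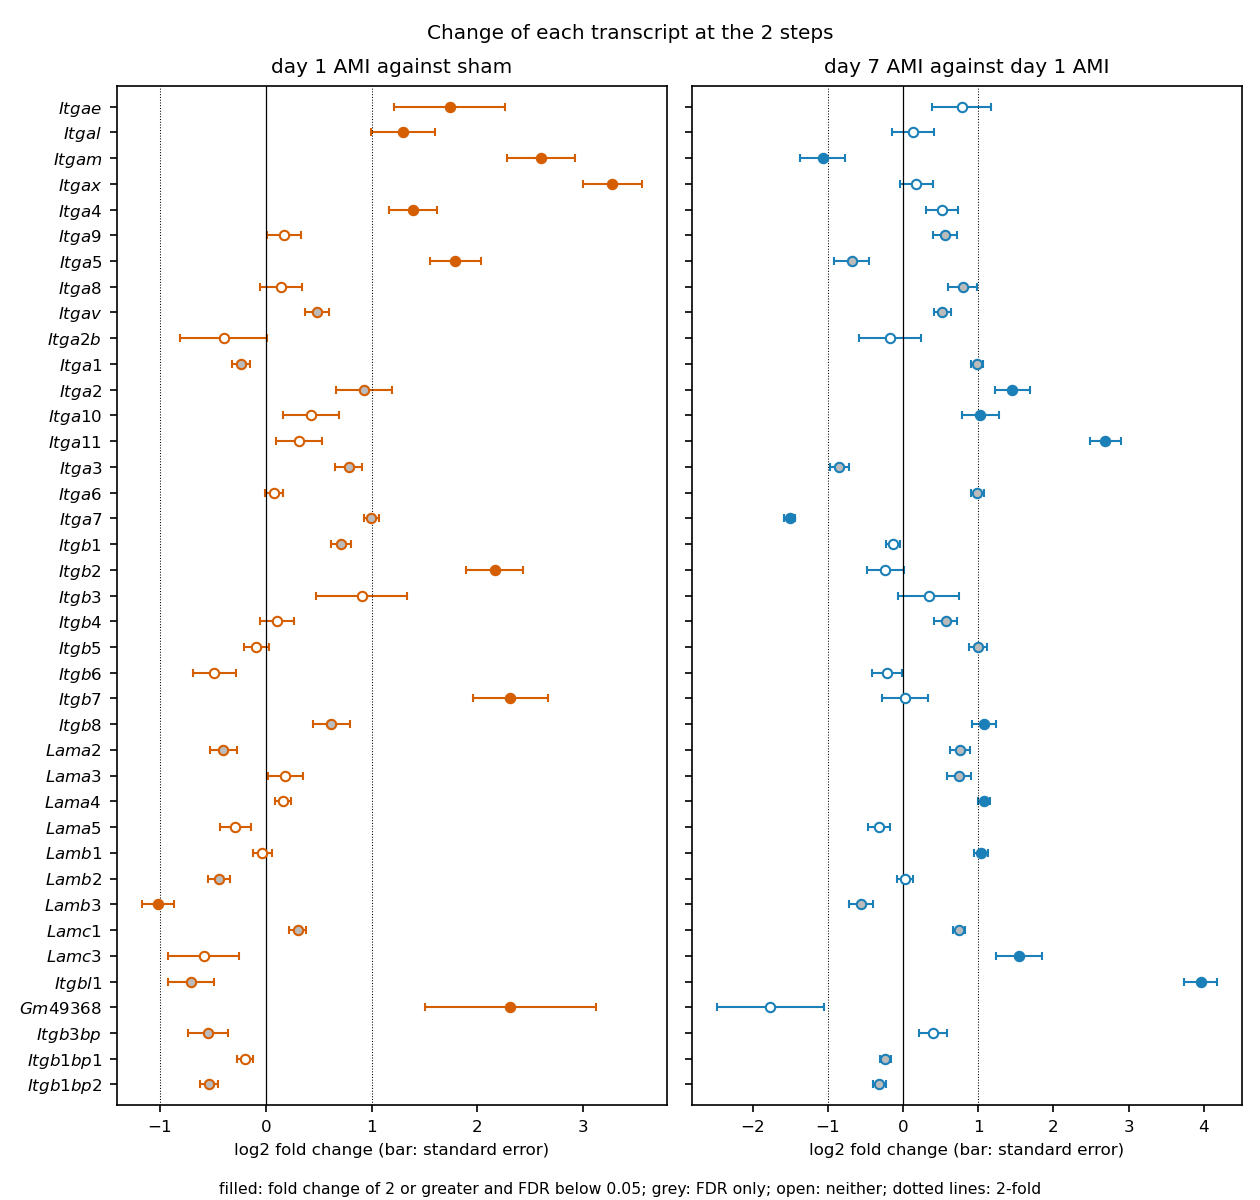
Log2 FC of 39 genes that passed the filter (rows) for day 1 AMI against sham (left) and day 7 AMI against day 1 AMI (right), with bars for the standard error. Filled points are DEGs, gray points passed the FDR only, open points neither, and dotted lines mark an FC of 2. *Itgax* reaches 3.28 on the left and lies at 0.18 on the right, while *Itga7* lies at 1.00 and −1.51, and *Itgbl1* at −0.71 and 3.96.

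Of the β chains, 2 of 8 tested were DEGs on day 1 (*Itgb2* and *Itgb7*, above), and 4 of 8 on day 7 against sham, with *Itgb3* and *Itgb8* added. Of all genes tested, 10.8% and 21.2% were DEGs in either direction in these comparisons. *Itgb8*, which with αV activates latent TGF-β, was 1.62, 2.01, 1.50, and 2.20 CPM in sham, 2.68, 3.01, 2.26, and 3.34 on day 1, and 6.35, 6.26, 5.68, and 5.65 on day 7. The groups did not overlap at either step, and day 7 stood at 3.25-fold over sham (log2 FC 1.70, SE 0.171, adjusted p = 1.63e-06) and 2.12-fold over day 1 (log2 FC 1.08, SE 0.161, adjusted p = 0.00011). The call between the AMI groups was lost without day 1 heart 3 (0.99). With limma on log2(TPM + 1) neither *Itgb8* call was kept (0.81 over sham and 0.57 over day 1). *Itgb3*, the β3 chain of platelets and endothelium, was called on day 7 (log2 FC 1.25, SE 0.430, adjusted p = 0.022), although its day 7 hearts (6.01 to 16.8 CPM) overlapped the sham hearts (2.34 to 8.05) and the exact two-sided permutation test gave p = 0.0571. That call was lost without sham heart 3 (1.05, adjusted p = 0.065), sham heart 4 (1.04, adjusted p = 0.0649), or day 7 heart 1 (0.91, adjusted p = 0.0868).

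The abundant β chains were below the FC minimum in edgeR and in part above it on the TPM scale. *Itgb1*, the partner of most matrix-binding α chains, was 422 to 492 CPM in sham, 679.8 to 834 on day 1, and 623 to 742 on day 7, with log2 FCs over sham of 0.71 (SE 0.0913, adjusted p = 7.5e-05) and 0.58 (SE 0.0912, adjusted p = 8.21e-05). With limma on log2(TPM + 1) the day 1 difference of *Itgb1* was 1.03 and the gene was a DEG. *Itgb5*, a partner of αV, was 121 to 146 CPM in sham, 113 to 152 on day 1, and 228 to 315 on day 7, with the highest value in heart 1. Its log2 FC was 0.90 over sham (SE 0.119, adjusted p = 1.81e-05) and 0.99 over day 1 (SE 0.119, adjusted p = 1.89e-05), so that day 7 stood apart from both groups but under the FC minimum. With limma on log2(TPM + 1) *Itgb5* was a DEG in both comparisons (1.39 and 1.08), as it was with library sizes alone (1.30 and 1.12). It was also a DEG over day 1 without day 1 heart 4 (1.08), day 7 heart 2 (1.03), day 7 heart 3 (1.02), or day 7 heart 4 (1.04). *Itgb4*, the β4 chain of hemidesmosomes, had a log2 FC of 0.67 over sham on day 7, and *Itgb6*, a chain of epithelia, one of −0.70. *Itgb2l*, a relative of *Itgb2*, had 0 to 4 counts in sham, 0 to 1 on day 1, and 0 to 11 on day 7.

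Within the α chains, the balance moved away from α7. In TPM, *Itga7* made up 48.4% ± 1.59 (SD, n = 4) of the summed α chains in sham, 50.8% ± 6.13 on day 1, and 24.3% ± 1.89 on day 7. *Itga6* took 16.2% ± 1.59, 9.22% ± 0.669, and 25.1% ± 1.69, and *Itga5* took 12.0% ± 1.13, 20.8% ± 5.99, and 18.2% ± 2.81. In sham and day 1 AMI *Itga7* was the most abundant α chain in every heart, at 73.8 TPM ± 6.66 and 183 TPM ± 11.5. On day 7 *Itga6* (78.0 TPM ± 3.93) and *Itga7* (75.6 TPM ± 3.37) overlapped, and *Itga7* overlapped *Itga5* (57.5 TPM ± 15.3). The ratio of *Itga6* to *Itga7* in TPM ran from 0.278 to 0.371 in sham, from 0.167 to 0.200 on day 1, and from 0.965 to 1.10 on day 7, without overlap. Among β chains *Itgb1* held 75.1% ± 2.89, 80.7% ± 2.41, and 67.2% ± 2.98, and *Itgb5* held 20.1% ± 2.37, 13.2% ± 2.49, and 26.3% ± 2.51. In each of the 3 groups these were the first and second β chains in TPM, apart from each other and from the third. Shares are a description of relative abundance and were not tested.

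**Figure D4:**
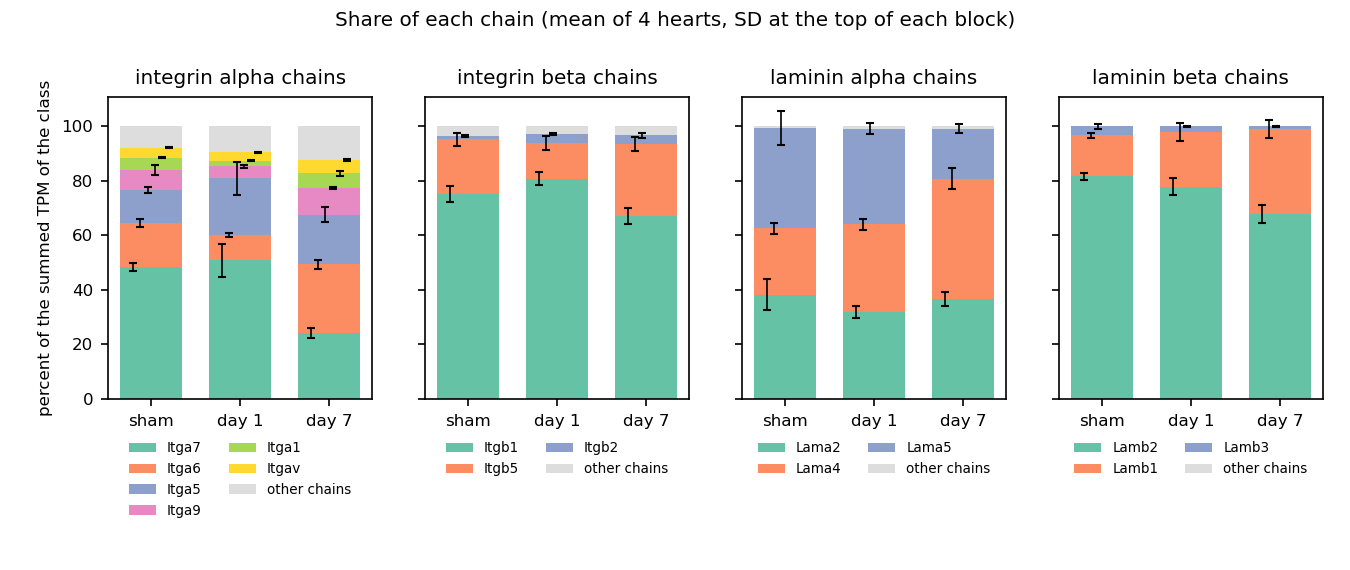
Share of each chain in the summed TPM of its class (integrin α, integrin β, laminin α, laminin β), as the mean of 4 hearts, with the SD drawn at the top of each block. The *Itga7* block shrinks from 48.4% in sham to 24.3% on day 7, and the *Lama4* block grows from 24.3% to 44.0%.

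The laminin chains changed in both directions. On day 1 *Lamb3* was lower than in sham, and on day 7 it was still lower. On day 7, 3 of 10 tested were higher than in sham (*Lama4*, *Lamb1*, *Lamc1*), beside 15.3% of all genes. DEGs lower than in sham were 2.98% of all genes on day 1 and 5.88% on day 7. The 3 chains that were higher on day 7 can form laminin 411, a trimer known from capillaries. The γ1 chain is shared by most laminins, and no trimer was measured. *Lama4* (chr10:38965515-39110188), the α4 chain, was 91.2, 79.6, 96.3, and 92.3 CPM in sham, 101, 101, 105, and 94.6 on day 1, and 215, 207, 195, and 231 on day 7. Day 7 stood apart from both other groups, which overlapped each other, at a log2 FC of 1.24 over sham (SE 0.0805, adjusted p = 4.89e-08) and 1.08 over day 1 (SE 0.0800, adjusted p = 3.36e-07). Both calls were kept under each of the alternatives.

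*Lamb1*, the β1 chain, had the same course, at 120.5 to 136 CPM in sham, 119.6 to 134 on day 1, and 309, 235, 235, and 257 on day 7. Its log2 FC of 1.01 over sham (SE 0.0920, adjusted p = 7.36e-07) stood at the FC minimum and was lost in 7 of 22 alternatives, among them those without day 7 heart 1 (0.91) or sham heart 1 (1.00) or 4 (0.97). Over day 1 it was 1.04 (SE 0.0919, adjusted p = 1.45e-06), and 0.94 without day 7 heart 1. *Lamc1*, the γ1 chain shared by most laminins, was 228 to 264 CPM in sham, 288 to 319 on day 1, and 462 to 548 on day 7, apart at each step. Its log2 FC over sham was 0.30 on day 1 (SE 0.0826, adjusted p = 0.00978) and 1.04 on day 7 (SE 0.0833, adjusted p = 2.44e-07), and the latter was just under the FC minimum (1.00 after rounding) without day 7 heart 1.

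*Lamb3* (chr1:193207699-193343878) encodes the β3 chain, known from the basement membrane of epithelia. Its level was 17.1, 25.2, 15.1, and 19.5 CPM in sham, 9.56, 7.91, 10.4, and 10.1 on day 1, and 6.04, 6.07, 7.71, and 5.92 on day 7, with no overlap at either step. It was 2.03-fold lower on day 1 (log2 FC −1.02, SE 0.154, adjusted p = 0.000204) and 2.99-fold lower on day 7 (log2 FC −1.58, SE 0.158, adjusted p = 1.58e-06). The day 1 call was lost without sham heart 2 (−0.86) and without day 1 heart 2 (−0.94), and the day 7 call was lost with limma on log2(TPM + 1). *Lama3*, the α3 chain, likewise of epithelia, was 3.20 to 4.12 CPM in sham and 5.64 to 8.23 on day 7 (log2 FC 0.93, SE 0.164, adjusted p = 0.000218), under the FC minimum.

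Neither muscle laminin chain, *Lama2* or *Lamb2*, was a DEG with edgeR in any of the 3 comparisons. *Lama2*, the α2 chain of the cardiomyocyte basement membrane, was 130.0, 107, 162, and 174 CPM in sham, 101 to 124 on day 1, and 172 to 198 on day 7. Its groups overlapped in both comparisons with sham, and between the AMI groups it was 1.69-fold higher on day 7 (log2 FC 0.75, SE 0.130, adjusted p = 0.000338). With limma on either TPM scale *Lama2* was a DEG between the AMI groups (log2 FC up to 1.08). *Lama5*, the α5 chain of mature vessels, was 210.0 to 307 CPM in sham and 137 to 185 on day 7 (log2 FC −0.61, SE 0.149, adjusted p = 0.00293), and in TPM it was 25.9 ± 4.49 in sham and 25.4 ± 3.01 on day 7. *Lamb2*, the β2 chain of the neuromuscular junction and of muscle, was the most abundant laminin chain at 139 TPM ± 10.6 in sham. It was 497 to 548 CPM in sham, 317 to 468 on day 1, and 369 to 435 on day 7, with log2 FCs over sham of −0.44 (adjusted p = 0.00462) and −0.42 (adjusted p = 0.00349), of which the day 7 value was 0.27 on the log2(TPM + 1) scale. *Lamc3*, a rare γ chain, was 0.294 to 0.497 CPM on day 1 and 0.863 to 1.39 on day 7 (log2 FC 1.54, SE 0.308, adjusted p = 0.00102). It passed the filter through the day 7 hearts alone, so this difference is a description. Its day 7 log2 FC over sham was 0.95 (SE 0.306, adjusted p = 0.0149). *Lama1*, the α1 chain of the embryo, had 0 to 3 counts in sham libraries, 0 in every day 1 library, and 4 to 11 in day 7 libraries. The mean of day 7 was at least 1.94-fold higher than the floor of 3 counts per library on day 1.

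In TPM the laminin α chains exchanged places. *Lama4* took 24.3% ± 1.99 of the summed α chains in sham, 32.3% ± 2.09 on day 1, and 44.0% ± 3.84 on day 7, without overlap. *Lama5* took 36.8% ± 6.19, 35.1% ± 2.00, and 18.4% ± 1.66, and *Lama2* took 38.3% ± 5.62, 31.8% ± 2.24, and 36.7% ± 2.52. The ratio of *Lama4* to *Lama5* ran from 0.522 to 0.884 in sham, from 0.832 to 1.03 on day 1, and from 2.03 to 2.94 on day 7. *Lamb1* took 15.0% ± 0.941, 20.1% ± 3.24, and 31.2% ± 3.31 of the β chains, and *Lamb2* the larger part of the rest. On the CPM scale *Lama5* and *Lamb2* were themselves lower on day 7 than in sham (above), whereas their mean TPM was 25.4 against 25.9 for *Lama5* and 169 against 139 for *Lamb2*, so that *Lamb2* changed direction with the scale.

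The remaining matches are not receptor chains. *Itgb1bp2* (melusin), a muscle protein that binds the tail of β1, was 188, 155, 178, and 206 CPM in sham, 133, 119, 128, and 120.3 on day 1, and 96.8, 99.7, 102, and 103 on day 7. The groups did not overlap at either step. Its log2 FC was −0.54 on day 1 (SE 0.0854, adjusted p = 0.000279) and −0.86 on day 7 against sham (SE 0.0859, adjusted p = 1.6e-06), under the FC minimum. *Itgb1bp1* (ICAP-1), which holds β1 inactive, had a log2 FC of −0.43 on day 7 (SE 0.0768, adjusted p = 0.000244), which was 0.09 on the log2(TPM + 1) scale, and exons of *Asap2* and *Cpsf3* on the other strand cover 16.9% of its exon bases. *Itgb3bp*, a centromere protein named for binding β3, was 1.46-fold lower on day 1 (adjusted p = 0.033), which missed the FDR in 11 of 22 alternatives. A second row carried the symbol Itgam. Its identifier, ENSMUSG00000108596, is *Gm49368* in GENCODE M21. Of its 75-base stretches, 76.1% occur in *Itgam* or *Gm45700* too, most of them in *Itgam*. Of the stretches of *Itgam*, 65.2% occur in *Gm49368*. *Gm49368* held at most 3.21% of the counts of *Itgam* and *Gm49368* together. The counts of neither *Itgam* nor *Gm49368* can therefore be taken as fully its own. The call of *Gm49368* on day 1 (log2 FC 2.31, SE 0.808, adjusted p = 0.0332) rested on 6 to 29 counts per day 1 library, its groups overlapped, and it was lost without sham heart 3 or 4 or without day 1 heart 1 or 2, with adjusted p from 0.0817 to 0.0877. *Gm49368* passed the filter through AMI hearts alone, so this difference is a description.

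The partners of integrins inside the cell were described from a list of 22 adaptors and kinases, of which 21 were tested. On day 1, 4 were higher than in sham, beside 7.79% of all genes, and 0 lower, beside 2.98%. On day 7 these were 8 and 0, beside 15.3% and 5.88%. Between the AMI groups edgeR called 0, beside 11.2%, with 10 past the FDR alone, beside 47.0%. The median log2 FC of the list was 0.48, 0.51, and −0.04. *Parvg*, the parvin of blood cells, had a log2 FC of 2.44 on day 1 (SE 0.209, adjusted p = 6.4e-06) and 2.25 on day 7 (SE 0.209, adjusted p = 8.6e-07). *Actn1*, which links integrins to actin, had 2.01 (SE 0.256, adjusted p = 7.2e-05) and 1.81 (SE 0.255, adjusted p = 3.2e-05). *Fermt3*, the kindlin of blood cells, reached 1.46 on day 1 (SE 0.238, adjusted p = 0.00035), and *Flna*, which binds the β tail, 1.66 on day 7 (SE 0.215, adjusted p = 1.6e-05). *Tln1* (talin 1) was higher by less than 2-fold, with a log2 FC of 0.87 on day 1.

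Ligands of integrins outside the collagens and laminins formed a further list. Of 19 listed, 18 were tested, and 5 were higher on day 1, 10 on day 7 against sham, and 6 on day 7 against day 1, with 0 lower in each. Of all genes, 7.79%, 15.3%, and 8.55% were higher in these comparisons, and 2.98%, 5.88%, and 2.69% lower. The median log2 FC of the list was 0.40, 1.23, and 0.67. *Spp1* (osteopontin, a ligand of αV, α4, and α9 pairs) had a log2 FC of 7.94 on day 1 (SE 0.639, adjusted p = 4.1e-06) and 7.41 on day 7 (SE 0.637, adjusted p = 4.4e-07), from a mean of 0.456 CPM in sham. *Tnc* (tenascin C, a ligand of α9β1) had 6.77 (SE 0.634, adjusted p = 9.6e-06) and 6.99 (SE 0.636, adjusted p = 7.2e-07). *Thbs1* (thrombospondin 1) had 2.86 on day 1 (SE 0.579, adjusted p = 0.0015). *Postn* (periostin, a ligand of αV pairs) rose mainly at the second step, with a log2 FC of 4.23 from day 1 to day 7 (SE 0.181, adjusted p = 2.1e-09) and 5.99 over sham on day 7. *Fn1* (fibronectin, the ligand of α5β1) rose by 2.67 at that step (SE 0.322, adjusted p = 2e-05), while its receptor chain *Itga5* had been highest on day 1. *Fbln5*, a fibulin of elastic fibers, rose by 2.59 (SE 0.120, adjusted p = 4e-09).

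Of 18 laminin partners in the basement membrane and at the cell surface, all were tested. On day 1, 1 was higher (*Col18a1*, log2 FC 1.41, SE 0.176, adjusted p = 6.2e-05), beside 7.79% of all genes. On day 7 against sham 5 were higher, beside 15.3%, and 1 lower, beside 5.88%. On day 7 against day 1, 4 were higher, beside 8.55%. As a share of the list, the 1 higher on day 1 and the 1 lower on day 7 were each 5.56%. The median log2 FC of the list was 0.09, −0.10, and −0.01. On day 7 against sham the largest changes were those of *Col18a1* (log2 FC 2.65, SE 0.180, adjusted p = 6.8e-08), *Col4a1*, the main collagen of basement membranes (1.67, SE 0.159, adjusted p = 1e-06), and *Nid2* (1.64, SE 0.144, adjusted p = 5.2e-07). *Nid1*, the nidogen that joins laminin γ1 to collagen IV, rose by 1.39 from day 1 to day 7 (SE 0.112, adjusted p = 7e-07), beside 1.44 for *Nid2* and 1.24 for *Col18a1*. The lower gene was *Sgca*, the α-sarcoglycan of the dystrophin complex of muscle (log2 FC −1.06, SE 0.113, adjusted p = 2.8e-06), and *Dag1*, the dystroglycan that binds laminin α2, had a log2 FC of −0.44 (SE 0.0971, adjusted p = 0.0014).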

How the data were processed

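Total RNA of whole hearts was sequenced by the authors from random-hexamer cDNA. They trimmed the reads with Cutadapt, aligned them with STAR 2.4.0j to Ensembl GRCm38, and quantified genes with RSEM. The labels also name mm10 and CASAVA 1.8. The authors deposited raw counts per gene (whole numbers, not normalized) and TPM from RSEM. The tool behind the counts, the strand, and the treatment of reads shared between genes are not given in the sources used here, so overlapping genes are uncertain.

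Groups and replicates came from the labels. Counts were fitted with edgeR 4.0.16 in R 4.3.3 (TMM, filterByExpr by group, quasi-likelihood test, one fit of 12 libraries), with Benjamini-Hochberg adjustment over 15306 of 53801 genes. The SE of a log2 FC is that implied by the F statistic, and log2 CPM used a prior count of 2. The code recovered changes planted in simulated data. Alternatives were DESeq2 1.42.0, limma 3.58.1 on log2(TPM + 1) and log2(TPM + 0.1), RLE size factors, no filter, only the groups compared, a replicate block, no FC minimum, each heart left out and, added after the data were seen, library sizes alone. Libraries of a group differed beyond counting noise (lowest chi-square per degree of freedom 9.19). Shared stretches and exon overlaps used GENCODE M21, and promoters are from RefSeq (GRCm38.p6). Members, lists, and tests were chosen with earlier results of these data known. Counts cover all matches, but the values of 1 gene are not reported here. Of each pathway list up to 3 called genes per comparison and direction are named, others for their role in a pair.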

Additional observations from a re-analysis of the deposited data

Results flagged for a closer look

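In 3 of 117 groups of 4 hearts (39 genes in 3 groups), the gap between one heart and its nearest neighbor took more of the group's whole range than Dixon's 95% critical value. Chance alone gives about 1 in 20 groups. For *Itgb5* in day 7 AMI, heart 1 had 315 CPM and the others 228 to 241 (gap 0.835 of the range). For *Itga1* in sham, heart 2 had 57.9 CPM and the others 65.6 to 66.1 (0.941). For *Lamb3* in day 7 AMI, heart 3 had 7.71 CPM and the others 5.92 to 6.07 (0.907).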

How the results depend on the processing

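Of 41 calls of single genes, 21 were kept under every alternative that tested the gene, 20 were lost under some, and 0 changed direction. The 21 include *Itgae* on day 7 against sham and *Lamc3* on day 7 against day 1. Each was tested in 20 of 22 alternatives, without the limma fits. Of 45 differences past the FDR alone, 24 were kept under every alternative, 21 were lost under some, and 4 of the 21 changed direction. *Itga1* on day 1 against sham was 0.14 with limma on log2(TPM + 1), 0.16 on log2(TPM + 0.1), and 0.043 with library sizes alone. On day 7 against sham, on the 2 TPM scales, *Lamb2* was 0.27 and 0.28, *Itga7* 0.038 and 0.038, and *Itgb1bp1* 0.091 and 0.095. Without the FC minimum the counts of higher and lower genes were 17 and 7 on day 1 against sham, 29 and 7 on day 7 against sham, and 18 and 8 on day 7 against day 1. The 1 lower gene on day 1, *Lamb3*, became 0 with both limma fits and with library sizes alone, and on day 7 against sham it became 0 with limma on log2(TPM + 1). The 2 lower genes on day 7 against day 1 became 1 with both limma fits and with library sizes alone, *Itgam* being lost, and 3 with only the groups compared (edgeR and DESeq2). The cause was not tested.

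With each heart left out, higher and lower genes numbered 9 to 12 and 0 to 1 on day 1 against sham, 15 to 21 and 1 to 1 on day 7 against sham, and 7 to 10 and 1 to 4 on day 7 against day 1. The lower count was 4 without day 1 heart 4, and 1 without day 1 heart 2, day 7 heart 2, or day 7 heart 3. The labels do not say whether replicate numbers pair the hearts. Same-numbered hearts of different groups had correlations of deviations from −0.244 to 0.229, and 2 of 12 hearts were closest to their own number. For hearts with different numbers they ran from −0.271 to 0.250. Such correlations cannot show whether hearts shared a day or a batch. With the replicate block the counts were 10 and 1, 18 and 1, and 8 and 2, *Itgav* being lost on day 7 against sham.

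Shares by counts per kilobase of the longest transcript, in place of TPM, moved by more than 1 SD for *Itga6* (13.6%, 7.43%, and 21.2% in sham, day 1, and day 7), *Itga7* (51.3% in sham and 26.7% on day 7), *Itgb1* (69.9% in sham and 76.9% on day 1), *Itgb5* (24.8% in sham), *Lama2* (29.0%, 24.7%, and 27.7%), *Lama4* (29.0%, 36.6%, and 51.1%), *Lama5* (37.8% on day 1 and 20.3% on day 7), and *Lamb1* (18.6%, 23.8%, and 38.5%). Depth limited *Itgad*, *Itgb2l*, *Lama1*, *Gm49368*, and *Itgae*, which had few counts in sham.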

Other observations

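The 4 marker lists not set beside a result above gave these values. Against sham, 3 of 8 mural genes were DEGs upward on day 7 and 1 downward, and their sum was 1253 to 1416 CPM in sham, 908 to 1021 on day 1, and 1318 to 1667 on day 7. Of 7 erythroid genes, 4 were lower on day 1 and 4 on day 7 than in sham, with overlapping groups and sham heart 2 highest. Of 5 Schwann cell genes tested, 1 was lower on day 7. Of 6 mesothelial and epicardial genes, 3 were higher on day 7 than in sham, with sums of 11.3 to 27.5 CPM in sham, 9.14 to 27.2 on day 1, and 27.3 to 38.2 on day 7. Among all genes tested, 2.98% were DEGs lower than in sham on day 1. On day 7, 15.3% were higher and 5.88% lower.

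*Itga1* and *Itga2* lie side by side on chromosome 13, and their log2 FCs from sham to day 1 were −0.23 and 0.93. This pair was chosen after its values were seen.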
